A study of Mus musculus with 6 samples.

Results

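The genes described here make sterols and fatty acids or control their synthesis. They are 30 genes chosen by name from pathway knowledge, of 31053 genes in the matrices, and they fall into 5 roles: 7 genes of the mevalonate pathway, 10 genes of the later sterol steps, 4 regulators, 3 genes of fatty acid synthesis and 6 desaturases and elongases. Scd1, a desaturase, was already known from these data to be higher in vitamin D3 stimulated dendritic cells (DCs), so its values in that comparison are a description. The question asked of the other 29 genes was whether they moved with Scd1, by library and by cell state.

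Droplet-based single-cell RNA-seq (10x Genomics, Single Cell 3′ v3 chemistry) gave 6 mouse libraries, 1 for each condition. Of these, 3 hold bone marrow-derived DCs (BM-DCs), grown from wild-type C57BL/6 marrow in GM-CSF: untreated cells, cells stimulated with VD3 (calcitriol, the active form of vitamin D3), and Ndrg2-KO cells. The knockout was made by nucleofection of Cas9 with guide RNAs against Ndrg2, a gene of the N-myc downstream regulated family, and is a pool of edited cells rather than a clone. The other 3 libraries hold cells of full-thickness excisional wounds dressed with a hydrogel that carried control DCs, carried Ndrg2-KO DCs, or was blank. The wound tissue came from several mice per group, and 1 library stands for each group. The study used wild-type and db/db mice. It sets the time of the tissue for these 3 libraries by the healing curves of its wild-type experiment, without naming the strain of the mice sampled. The series description also speaks of a sort for GFP+ cells from wounds of parabiotic animals, which the labels of the wound samples do not mention. The untreated BM-DCs are not labelled as nucleofected, so in the BM-DCs an effect of nucleofection cannot be told apart from one of losing Ndrg2, and the control DCs of the wounds are labelled untreated whereas the study's methods give them non-targeting guides.

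Cholesterol is built from acetyl-CoA through mevalonate to farnesyl diphosphate, squalene and then lanosterol, which a further series of enzymes turns into cholesterol. Fatty acid synthesis draws on the same acetyl-CoA, which ATP citrate lyase supplies, and its product palmitate is elongated and desaturated. SREBP-2, encoded by Srebf2, drives the sterol genes and SREBP-1c, encoded by Srebf1, drives the fatty acid genes, both being held in the endoplasmic reticulum by Insig proteins when sterols are plentiful. In macrophages and DCs, liver X receptors respond to oxysterols and raise Srebf1, Scd1 and the cholesterol export genes.

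After removal of cells with fewer than 300 genes, with 100000 or more unique molecular identifiers (UMIs), or with 10% or more mitochondrial UMIs, the BM-DC libraries held 7257 to 8825 cells with medians of 12089 to 16316 UMIs per cell, and the wound libraries held 1948 to 5681 cells with medians of 4415 to 10795 UMIs. Levels are given as counts per 1000000 UMIs (CPM), summed over the cells of a library or state, with exact 95% Poisson intervals. Ratios are given on the log2 scale with exact 95% intervals. Between 1 and 19 barcodes of kept cells were shared by each pair of libraries. Since each condition was 1 library, no test of a condition was possible. All intervals cover counting error only, with UMIs taken as independent, and not variation between cells, cultures or mice. A gene is called higher or lower where its ratio passed 2-fold, and a call is a statement about size. In sums over a whole library, fewer cells of a type and less RNA per cell cannot be told apart.

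The targeted gene Ndrg2 stood at 4.62 CPM (4.26 to 5.0) without treatment, 1.42 CPM (1.21 to 1.65) after VD3 and 0.884 CPM (0.737 to 1.05) in the knockout library. In the wounds it was at 6.10 CPM with control DCs, 3.33 CPM with Ndrg2-KO DCs and 3.29 CPM with blank hydrogels. Ndrg2 was thus lowest among the BM-DCs in the library labelled as its knockout, where some UMIs were still counted. The study places the strongest Ndrg2 expression of untreated DCs in a cluster that also expressed Itgae and Clec9a. Here the cluster with those markers held 72 untreated, 113 VD3 stimulated and 1 Ndrg2-KO cell. Its part in the Ndrg2 sums was not tested. Cyp24a1, the vitamin D-inducible enzyme that inactivates calcitriol, had 36662 UMIs in the VD3 library against 1 in the untreated and 0 in the knockout library, so the stimulated library carried the response its label calls for.

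Promoter windows of 4 members are shown, because they lie at points of the pathway to which the results return: Hmgcs1, which makes HMG-CoA, Mvk and Mvd, the kinase and the decarboxylase of the mevalonate pathway, and Fasn, the fatty acid synthase. Each window is the 250 bases before the RefSeq start on the GRCm38.p6 assembly, 5′ to 3′ on the strand of the gene. Capitals mark matches, on either strand, to the sterol regulatory element core TCACNCCAC, the E-box CACGTG or the CCAAT box, to which SREBPs, basic helix-loop-helix factors and NF-Y bind. The Hmgcs1 window is chr13:119690101-119690350 on the plus strand, the Mvk window chr5:114444019-114444268 on the plus strand, the Mvd window chr8:122443423-122443672 on the minus strand, and the Fasn window chr11:120824548-120824797 on the minus strand.
Mvk: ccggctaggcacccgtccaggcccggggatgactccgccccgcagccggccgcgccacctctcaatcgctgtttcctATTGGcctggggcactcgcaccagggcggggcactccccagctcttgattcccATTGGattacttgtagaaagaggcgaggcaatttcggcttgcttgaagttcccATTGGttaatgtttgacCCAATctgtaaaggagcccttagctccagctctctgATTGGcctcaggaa
Mvd: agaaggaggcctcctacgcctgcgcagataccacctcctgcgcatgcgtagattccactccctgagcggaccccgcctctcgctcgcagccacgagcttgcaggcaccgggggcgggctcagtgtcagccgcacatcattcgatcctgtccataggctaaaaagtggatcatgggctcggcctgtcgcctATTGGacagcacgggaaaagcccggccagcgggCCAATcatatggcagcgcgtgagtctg
Fasn: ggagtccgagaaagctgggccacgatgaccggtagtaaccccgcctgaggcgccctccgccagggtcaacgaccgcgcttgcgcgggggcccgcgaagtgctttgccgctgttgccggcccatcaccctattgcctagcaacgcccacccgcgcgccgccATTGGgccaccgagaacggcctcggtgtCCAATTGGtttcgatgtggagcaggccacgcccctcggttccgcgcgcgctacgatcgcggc
Hmgcs1: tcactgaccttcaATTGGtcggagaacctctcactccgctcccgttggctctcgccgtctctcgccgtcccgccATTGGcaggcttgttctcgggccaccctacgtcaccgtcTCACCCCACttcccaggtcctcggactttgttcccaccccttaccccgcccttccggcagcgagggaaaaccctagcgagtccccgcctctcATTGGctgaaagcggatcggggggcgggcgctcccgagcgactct
The Hmgcs1 window holds 1 sterol element match, which begins 137 bases before the start, and 3 CCAAT matches. The Mvk window holds 5 CCAAT matches, the Mvd window 2 and the Fasn window 3, of which 2 share bases. RefSeq windows were available for 23 members, in 28 windows. The sterol element core as spelled here was found in Hmgcs1 only of those 23, beside 1.045% of all 32536 windows. The CCAAT box was found in 18 of the 23 members, and in 67.9% of their windows beside 33.8% of all windows. The E-box was found in 5 members (Dhcr7, Elovl5, Hsd17b7, Insig1 and Sc5d) and in 17.9% of member windows beside 6.04% of all windows. Windows were not used here for Fdps, Fdft1, Sqle, Stard4, Scd1, Scd2 and Fads1. A match is a description of the letters and not a binding site.

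**Figure D1:**
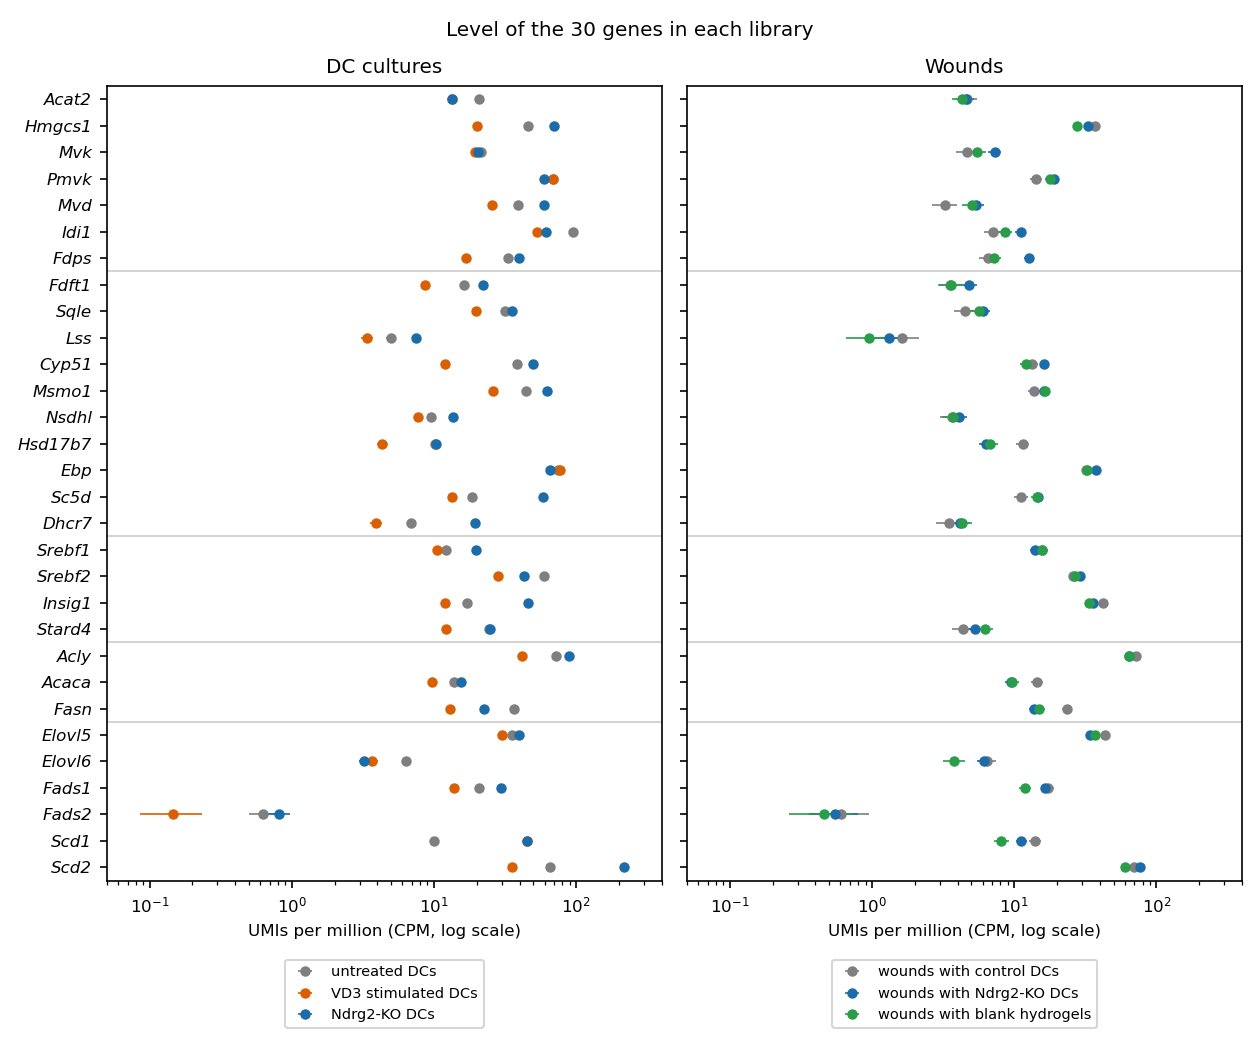
Level of each of the 30 genes in the 6 libraries, as CPM on a log axis, grouped by role, with exact 95% Poisson intervals. The point of the VD3 stimulated library lies left of that of the untreated library for most genes and far right of it for Scd1 (9.99 against 44.9 CPM).

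In VD3 stimulated DCs, the pathway did not follow Scd1. Scd1, which places a double bond in stearate and palmitate, stood at 9.99 CPM (9.46 to 10.5) untreated and 44.9 CPM with VD3, a log2 difference of 2.17 (2.08 to 2.26). Of the other 29 genes, 28 had ratios below 0, and Ebp was at 0.03. The smallest of those ratios was that of Pmvk, at -0.02 with an interval that held 0 (-0.06 to 0.02). Lower calls were made for 6 genes (Hmgcs1, Cyp51, Hsd17b7, Srebf2, Fasn and Fads2), and Scd1 alone was called higher, beside 6.84% of 12107 genes called lower and 3.43% called higher. The median over the 30 genes was -0.72 (-0.77 without Scd1), beside -0.08 over all genes tested. Scd1 and Scd2 are neighbouring paralogs on chromosome 19 (GRCm38, chr19:44394455-44407879 on the minus strand and chr19:44293674-44306864 on the plus strand) and similar transcript ends could share reads, which was not tested.

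**Figure D2:**
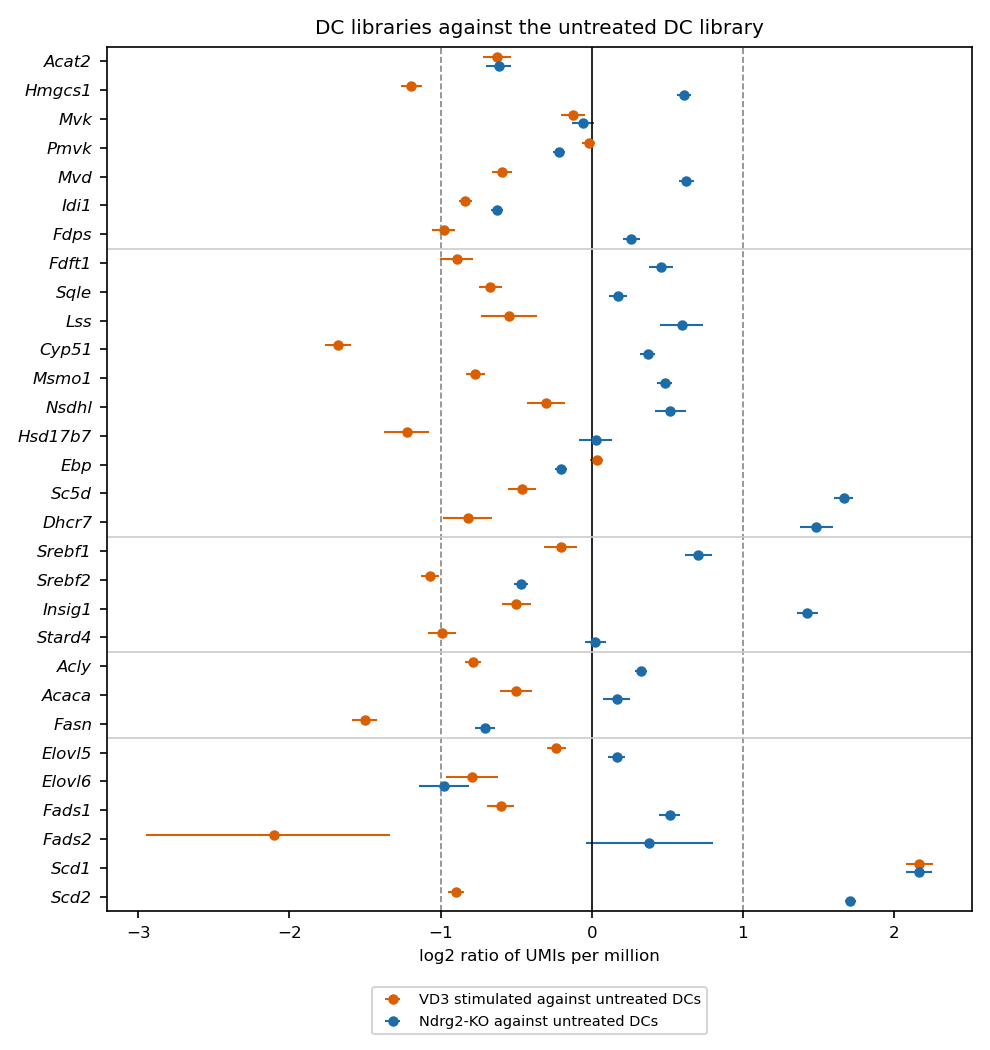
Log2 ratios of the 30 genes in the BM-DC libraries, VD3 stimulated against untreated and Ndrg2-KO against untreated, with exact 95% intervals, grouped by role between grey lines and with dashed lines at 2-fold. Scd1 stands at 2.17 and 2.16, while most other genes lie below 0 with VD3 and Scd2, Sc5d, Dhcr7 and Insig1 lie above 2-fold in Ndrg2-KO cells.

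The mevalonate genes were below 0 in 7 of 7 cases with VD3, at a median of -0.63, and 1 was called. Hmgcs1 (chr13:119690379-119708260, plus strand), the synthase whose window is printed above, was at 45.6 CPM untreated, 20.0 CPM with VD3 and 69.6 CPM in the knockout, a VD3 ratio of -1.19 (-1.26 to -1.12). Fdps, which makes farnesyl diphosphate, was at 33.2, 16.8 and 39.8 CPM, -0.98 (-1.06 to -0.90) with VD3. Both genes had their lowest level in the VD3 library and their highest in the Ndrg2-KO library. Idi1, the isopentenyl diphosphate isomerase, differed in that its untreated level was the highest, with 95.1, 53.3 and 61.6 CPM and a ratio of -0.84 (-0.88 to -0.79) with VD3. Acat2, a cytosolic thiolase, was at 20.7, 13.4 and 13.5 CPM, the VD3 and knockout levels being within counting error of each other. The kinases Mvk (-0.12, -0.20 to -0.04) and Pmvk stayed near the untreated level, and the decarboxylase Mvd was at -0.59 (-0.66 to -0.53), so the genes of this branch differed in size from near 0 to past 2-fold.

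Of the later sterol steps, 9 of 10 genes were below 0 with VD3, at a median of -0.72, and 2 were called. Cyp51 (chr5:4081145-4104746, minus strand), the lanosterol demethylase, was at 38.2 CPM untreated, 11.9 CPM with VD3 and 49.3 CPM in Ndrg2-KO DCs, which is 3.21-fold lower with VD3 (log2 -1.68, -1.77 to -1.59). Hsd17b7, a ketoreductase of sterol demethylation, was at 10.1, 4.32 and 10.3 CPM, -1.22 (-1.38 to -1.08) with VD3, and -0.92 when only cells under 5% mitochondrial UMIs were kept. Cyp51 showed the largest VD3 difference of the 17 sterol genes. The squalene makers and users Fdft1 (-0.89), Sqle (-0.67) and Lss (-0.55), the demethylation genes Msmo1 (-0.77) and Nsdhl (-0.30), and the late reductase Dhcr7 (-0.82) and desaturase Sc5d (-0.46) had ratios short of 2-fold. The isomerase Ebp was at 75.1 and 76.8 CPM, with no difference detectable at this depth (0.03, -0.01 to 0.07). Summed over the 17 genes, the level was 579 CPM (575 to 583) untreated, 393 CPM (389 to 397) with VD3 and 668 CPM (664 to 673) in Ndrg2-KO DCs.

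The 4 regulators were all below 0 with VD3, at a median of -0.75. Srebf2 was at 59.4 CPM untreated, 28.4 CPM with VD3 and 43.0 CPM in Ndrg2-KO DCs, -1.07 (-1.13 to -1.01) with VD3, a call that 4 alternatives of scaling, gene set or cell filter moved to between -0.87 and -0.99. Srebf1 was at 12.1, 10.5 and 19.8 CPM, a VD3 ratio of -0.21 (-0.31 to -0.10). The 2 SREBP genes thus differed in how far they stood from untreated in the same library. Insig1, which retains SREBPs in the endoplasmic reticulum and is itself a SREBP target, was at 16.9, 12 and 45.5 CPM, and Stard4, a cholesterol transfer protein, at 24.2, 12.2 and 24.6 CPM (-0.99, -1.08 to -0.90, with VD3).

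The fatty acid synthesis genes were below 0 with VD3 in 3 of 3 cases, at a median of -0.79, and Fasn alone was called. Fasn (chr11:120805846-120824547, minus strand) was at 36.5 CPM untreated, 12.9 CPM with VD3 and 22.4 CPM in Ndrg2-KO DCs, 2.83-fold lower with VD3 (log2 interval -1.59 to -1.42) and -0.71 (-0.77 to -0.64) in the knockout. Acly, the ATP citrate lyase, was at 71.6, 41.6 and 89.7 CPM and Acaca, the acetyl-CoA carboxylase that forms malonyl-CoA, at 13.8, 9.75 and 15.5 CPM. All 3 genes had their lowest level with VD3, but only Fasn was also below untreated in the knockout. Among the desaturases and elongases, 5 of 6 were below 0 with VD3, the exception being Scd1. Scd2 was at 65.8, 35.4 and 215 CPM, so that the paralog of Scd1 stood at -0.90 (-0.95 to -0.84) with VD3 and at 1.71 (1.68 to 1.75) in the knockout. Fads2, the delta-6 desaturase, rested on 83, 17 and 117 UMIs, and its VD3 ratio of -2.10 has an interval of -2.95 to -1.34. Fads1 (-0.60), Elovl6 (-0.79) and Elovl5 (-0.23) had ratios short of 2-fold. The 8 fatty acid genes without Scd1 summed to 251 CPM untreated, 147 CPM with VD3 and 417 CPM in the knockout.

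The genes around the pathway were counted in the same comparison. Of 12 further fatty acid and glycerolipid genes, Dgat1 (2.37) was called higher and Dgat2 (-1.91) and Me1 (-1.01) lower, Dgat1 and Dgat2 being unrelated enzymes for the last step of triglyceride synthesis. Of 14 genes of the liver X receptor and cholesterol export list, Npc2 (1.04) was called higher and 5 lower: the receptor genes Nr1h3 (-2.78) and Rxra (-1.57), the cholesterol 25-hydroxylase Ch25h (-2.79), Apoe (-1.53) and the phospholipid transfer protein Pltp (-1.14), at a list median of -0.28. Of 8 genes of lipid uptake, 6 were called lower: the scavenger receptors Cd36 (-1.56) and Msr1 (-1.27), the fatty acid binding proteins Fabp4 (-3.11) and Fabp5 (-1.01), lipoprotein lipase Lpl (-1.75) and its inhibitor Angptl4 (-2.15), at a median of -1.42. Cell state markers moved in the same comparison: premature DC markers had a median of -1.48 with 6 of 8 called lower, granulocyte-monocyte progenitor markers -1.11 with 5 of 5 called lower, and neutrophil markers 0.65. Their part in the sums over whole libraries was not tested, and the levels within states follow.

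Ndrg2-KO DCs had a summed Scd1 level as high as that of VD3 stimulated DCs, with other genes of the pathway at different levels. The comparison of Ndrg2-KO with untreated DCs shares the untreated library with the VD3 comparison. Scd1 was at 44.8 CPM, 2.16 (2.08 to 2.25) above untreated and within counting error of the VD3 library (-0.00, -0.06 to 0.05). That match holds for summed UMIs: over the alternatives the ratio of the knockout to VD3 ranged from -0.17 to 0.49, the highest being with every cell weighted equally. Higher calls were made for 5 genes (Scd1, Scd2, Sc5d, Dhcr7 and Insig1) and lower calls for 0, beside 8.60% of all genes called higher and 7.76% called lower. Ratios were above 0 in 22 genes and below 0 in 8, and the median was 0.35 beside -0.06 over all genes. In the later sterol steps 9 of 10 genes were above 0 (median 0.47), whereas the mevalonate genes were divided, 3 above and 4 below (median -0.06).

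Sc5d, which places the ring double bond late in the sterol pathway, was at 18.6 CPM untreated, 13.5 CPM with VD3 and 58.9 CPM in the knockout, 1.67 (1.6 to 1.73) above untreated. Dhcr7, which performs the step after Sc5d, was at 6.90, 3.91 and 19.3 CPM, 1.49 (1.38 to 1.6) above untreated. Insig1 stood at 1.43 (1.36 to 1.5). These 3 genes and Scd2 were highest in the knockout and lowest with VD3. Hmgcs1 (0.61), Mvd (0.63), Lss (0.60), Srebf1 (0.70) and Fads1 (0.52) were above untreated without reaching 2-fold, and Elovl6, the elongase of palmitate, was at 6.36, 3.68 and 3.24 CPM, -0.97 (-1.14 to -0.81) in the knockout. Fdft1 (0.46), Msmo1 (0.48), Nsdhl (0.52), Cyp51 (0.37), Acly (0.33) and Fdps (0.26) stood somewhat above untreated. Mvk (-0.06), Stard4 (0.02) and Hsd17b7 (0.03) were near it, and Idi1 (-0.63), Acat2 (-0.62) and Srebf2 (-0.47) were below it. In the surrounding lists, 5 of 14 liver X receptor and export genes were called higher: the exporter Abca1 (13.9 to 162 CPM, log2 3.54), Apoe (26.9 to 583 CPM, log2 4.44), Pltp (3.55), Mylip (1.3) and Cyp27a1 (1.6). Ch25h was called lower (-2.5), and the list median was 0.71. Cd36 (log2 3.02) and Fabp4 (4.91) were called higher among the lipid uptake genes and Angptl4 lower (-1.45). Among the further fatty acid and glycerolipid genes, the acetyl-CoA synthetase Acss2 (1.27) and the phosphatidate phosphatase Lpin1 (1.41) were called higher and Me1 (-1.35) and Dgat2 (-3.86) lower. Premature DC markers had a median of 1.13 and mature DC markers -0.90 in this comparison, and progenitor markers summed to 217 and 6.04 CPM, basophil markers, of which 5 of 7 were at 0 UMIs in the knockout, to 69.6 and 12.4 CPM, and neutrophil markers to 5355 and 436 CPM in the untreated and knockout cells. The part of these cell proportions was not tested.

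Set directly against VD3 stimulated DCs, Ndrg2-KO DCs had 16 of the 30 genes called higher and 0 lower, beside 11.5% of all genes called higher and 7.95% called lower. The median was 1.06, beside -0.00 over all genes, and 0.89 with every cell weighted equally. Of the 16 calls, 7 (Acly, Fads1, Fdps, Hsd17b7, Lss, Msmo1 and Stard4) fell short of 2-fold under at least 1 alternative, the lowest being Stard4 at 0.84. The calls covered 3 of 7 mevalonate genes, 7 of 10 later sterol genes, 2 of 4 regulators, 1 of 3 fatty acid synthesis genes and 3 of 6 desaturases and elongases. Scd2 (2.61, 2.56 to 2.65), Dhcr7 (2.31, 2.16 to 2.45), Sc5d (2.13, 2.05 to 2.21) and Cyp51 (2.05, 1.97 to 2.13) had the largest ratios beside Fads2 (2.48, 1.74 to 3.31), which rested on 17 UMIs in the VD3 library. The 2 libraries that matched in summed Scd1 UMIs were the furthest apart in the rest of the pathway, with 29 genes summing to 943 CPM untreated, 603 CPM with VD3 and 1218 CPM in the knockout without Scd1.

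The levels were next taken within cell states, defined by clustering in which the 30 genes were left out of the genes that set the clusters. Clusters named mature DC-like from their markers held 36.6% of untreated, 38.4% of VD3 stimulated and 26.0% of Ndrg2-KO cells. Most mature DC-like cells came from different clusters in each library: cluster 3 in the untreated (2516 of 2659 cells), cluster 2 in the VD3 stimulated (3058 of 3393) and cluster 5 in the Ndrg2-KO library (1886 of 2070). In this class mature DC markers summed to 17263 CPM untreated, 12194 CPM with VD3 and 24876 CPM in the knockout, and premature DC markers to 130, 76.0 and 1084 CPM, at medians of 14258, 13301 and 10639.5 UMIs per cell. The part of these differences was not tested. Scd1 was at 16.1 CPM untreated and 65.2 CPM with VD3 (2.02, 1.89 to 2.14). Idi1 (175 to 82.8 CPM, -1.08), Cyp51 (27.4 to 9.19 CPM, -1.58) and Acat2 (35.6 to 16.5 CPM, -1.11) were called lower and Scd1 alone higher of 29 genes with enough UMIs, beside 4.18% of 11393 genes called lower and 3.71% called higher. The median was -0.24, beside 0.08 over all genes. The mevalonate genes were below 0 in 7 of 7 cases (median -0.78), and the later sterol genes were divided, 4 above and 6 below (median -0.14). The 17 sterol genes summed to 593 CPM untreated and 418 CPM with VD3 (log2 -0.50, -0.53 to -0.48), and the 8 fatty acid genes without Scd1 to 117 and 105 CPM. Fasn, at 8.65 and 6.12 CPM (-0.50), and Scd2 (-0.15) stood closer to untreated within this class than in the whole library.

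Within mature DC-like cells of the Ndrg2-KO library, 5 of 29 genes were called higher than in the untreated ones, beside 10.7% of 11183 genes, and 3 were called lower, beside 3.67%. The higher genes were Scd1 (16.1 to 65.9 CPM, 2.03), Sc5d (12.6 to 53.4 CPM, 2.09), Scd2 (24.0 to 55.6 CPM, 1.21), Dhcr7 (2.39 to 5.09 CPM, 1.09) and Srebf1 (5.08 to 10.8 CPM, 1.09). The lower genes were 3 mevalonate genes, Idi1 (175 to 80.6 CPM, -1.12), Fdps (25.8 to 12.7 CPM, -1.02) and Acat2 (35.6 to 12.6 CPM, -1.50). The median was -0.19, beside 0.22 over all genes, so the positive median of the whole library was not seen within this class. In proliferating-like cells, by contrast, 23 of 30 genes were above 0 at a median of 0.40, and the sterol sum was 563 CPM untreated and 742 CPM in the knockout. No median or share over all genes was taken for this class, so these values have no such reference. Most of these cells also came from different clusters, cluster 7 in the untreated (1604 of 2162 cells) and cluster 10 in the Ndrg2-KO library (1108 of 1334). Within cluster 7 alone the sterol sum was 568 CPM (562 to 575) in the untreated and 643 CPM (609 to 679) in 127 Ndrg2-KO cells. In the mature DC-like cells of the knockout, Insig1 was at -0.11 and Hmgcs1 at -0.66. The sterol sum of these cells was 456 CPM (-0.38, -0.41 to -0.35), and the fatty acid sum without Scd1 was 163 CPM (0.47). In the shared mature DC-like cluster 3 these differences were not seen: its 159 Ndrg2-KO cells, at a median of 7575 UMIs, had a sterol sum of 585 CPM (545 to 627) beside 597 CPM untreated, and a fatty acid sum of 106 CPM (89.7 to 125) beside 118 CPM. Scd1 stood at 5.2 CPM (2.08 to 10.6) in them and at 15.9 CPM in the untreated cells, opposite to its direction over the class. In the class 7 of 14 liver X receptor and export genes were called higher (Abca1, Apoe, Mylip, Pltp, Soat1, Ch25h and Cyp27a1), with Abca1 at 13.8 and 116 CPM (log2 3.07).

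Cluster 3 held cells of both the untreated (2516) and the VD3 stimulated library (326), with median UMIs of 14418.5 and 11854.5. Scd1 was at 15.9 CPM untreated and 124.8 CPM with VD3 in this cluster, a log2 ratio of 2.97 (2.81 to 3.14), and at 5.2 CPM in its 159 Ndrg2-KO cells. Of 28 genes compared, 14 were above and 14 below 0. Idi1 (-1.14), Cyp51 (-1.14) and Acat2 (-1.03) were called lower, beside 3.79% of 10421 genes, and Scd1 higher, beside 5.32%. Sqle, the squalene epoxidase, was at 0.99 in the same cells. The sterol sum was 597 and 535 CPM (-0.16, -0.22 to -0.10), so where Scd1 was highest the sterol genes summed to close to the untreated level. Cluster 8, which is unnamed and has the progenitor granule genes Elane and Prtn3, held 1081 VD3 stimulated and 198 untreated cells. Scd1 was at 1.78 and 19.0 CPM there (3.42, 2.48 to 4.55). Fdps (121 to 23.6 CPM, -2.37), Fasn (82.6 to 20.3 CPM, -2.03), Hsd17b7 (-1.66) and Elovl6 (22.3 to 8.44 CPM, -1.40) were called lower of 29 genes, beside 6.47% of 10540 genes, and Scd1 alone higher, beside 16.1%. The median was -0.31, beside 0.12 over all genes, and the sterol sum was 617 and 422 CPM (-0.55, -0.60 to -0.49). The neutrophil-like cluster 6, with 863 untreated and 951 VD3 stimulated cells, went the other way, with sterol sums of 406 and 452 CPM (0.15, 0.05 to 0.26), and over all neutrophil-like cells 11 of 24 genes were above and 13 below 0. The cDC1-like cluster 16, with 72 and 113 cells, had sterol sums of 493 and 334 CPM (-0.56, -0.75 to -0.38). The proliferating-like cluster 4, with 553 and 1460 cells, had sterol sums of 371 CPM (344 to 401) and 278 CPM (260 to 297) at medians of 2826 and 1848.5 UMIs per cell. The mature DC-like cluster 2, with 104 untreated and 3058 VD3 stimulated cells, had sterol sums of 443 CPM (404 to 486) and 405 CPM (399 to 411), with Scd1 at 23.2 and 58.8 CPM. Both shared mature clusters thus differed less in the sterol sum than the class did. The neutrophil-like cluster 15 had sums of 394 CPM (341 to 452) in 53 and 437 CPM (403 to 474) in 149 cells, and the basophil-like cluster 17 had 519 CPM (472 to 570) in 64 and 348 CPM (306 to 393) in 77 cells. Of these 8 clusters, the VD3 sum was the lower one in 6, with intervals that did not overlap in 5, and the higher one in both neutrophil-like clusters. Over the whole proliferating-like class 29 of 30 genes were below 0 with VD3, and the sterol sums were 563 and 292 CPM. The VD3 stimulated cells of this class lay nearly all in cluster 4 (98.7%) and the untreated ones mostly in cluster 7 (74.2%), whose median was 27979.5 UMIs, and the part of this gap was not tested.

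The states of 1 library also differed from each other. In the untreated library, an unnamed cluster with Ccl17 and Mgl2 (1128 cells) had 24 of 29 genes with enough UMIs above their level in the mature DC-like cluster, 14 of them past 2-fold, beside 28.5% of 11268 genes past 2-fold higher and 14.1% past 2-fold lower. Scd2 was at 105.8 CPM in it and 24.4 CPM in the mature cluster, Fasn at 37.8 and 8.77 CPM, and Sqle at 47.6 and 11.95 CPM. Idi1 (53.1 and 177 CPM), Pmvk (47.7 and 108 CPM) and Acat2 (11.3 and 35.2 CPM) were past 2-fold the other way, 3 of 29 genes beside the 14.1% of all genes. Scd1 was at 9.23 CPM in the Ccl17 cluster and 15.9 CPM in the mature cluster.

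In the Ndrg2-KO library, the premature DC-like cluster (3584 cells) had 24 of 29 genes above the mature DC-like cluster and 18 past 2-fold higher, beside 18.8% of 11810 genes, with Pmvk past 2-fold lower, beside 12.4%. The median was 1.31, beside 0.09 over all genes. Scd2 was at 262 CPM in premature and 57.3 CPM in mature DC-like cells, Hmgcs1 at 84.6 and 22.7 CPM, Cyp51 at 59.25 and 15.9 CPM, Sqle at 41.9 and 8.59 CPM, and Insig1 at 56.2 and 14.2 CPM. Scd1 ran the other way, at 39.6 CPM in premature and 69.6 CPM in mature DC-like cells. In the VD3 stimulated library, the macrophage-like cluster (1110 cells, all of that library) had 19 of 29 genes above the mature DC-like cluster and 9 past 2-fold higher, beside 24.1% of 11181 genes, while Idi1, Pmvk, Acat2 and Scd1 were past 2-fold lower, beside 13.0%. Its median of 0.21 was close to the 0.25 over all genes.

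Scd1 and the sterol sum were both highest in the same cluster of the VD3 library and otherwise had different orders over its clusters. In the VD3 library Scd1 was at 124.8 CPM in cluster 3, 70.7 CPM in the unnamed cluster 13, 58.8 CPM in the mature DC-like cluster 2, 26.5 CPM in macrophage-like cells and 19.0 CPM in cluster 8. The sterol sum was 535, 347, 405, 329 and 422 CPM in those clusters, in the same order. In the 4 other clusters with at least 100 cells, Scd1 was between 0.945 and 8.94 CPM and the sterol sum between 278 and 452 CPM. In the knockout, Scd1 was at 75.4 CPM in the unnamed cluster 12 with a sterol sum of 602 CPM, and at 6.5 CPM in the unnamed cluster 14 with a sterol sum of 613 CPM. Similar sterol sums thus went with Scd1 levels far apart. Over 23 sums of a cluster in a library with at least 100 cells, pooled over the 3 libraries, the member whose log2 level was most like that of Scd1 was Fads1 (Pearson's r 0.47), which ranked 1833 of 12106 genes, followed by Scd2 (0.42), Pmvk (0.38) and Idi1 (0.36), and the least like was Fasn (-0.40). In the same pooled sums the genes most like Scd1 were Ctsf (0.92), Ehhadh (0.91), Hebp2 (0.89), Acss1 (0.89) and Dennd6a (0.88), of which Ehhadh is a peroxisomal enzyme of fatty acid oxidation and Acss1 a mitochondrial acetyl-CoA synthetase. None of these was among the 5 most alike within any single library, and the members had another order in each. Within the untreated library, over 7 sums, Idi1 (0.81), Pmvk (0.76) and Acat2 (0.72) were most like Scd1, Fads1 was at 0.34 and Fasn at -0.55. Within the VD3 library, over 9 sums, Fads1 and Pmvk were both at 0.78 and Idi1 and Scd2 both at 0.69, while Acly was at -0.73. Within the Ndrg2-KO library, over 7 sums, Sc5d was at 0.70, Fads1 at 0.38, Pmvk at -0.32 and Srebf2 lowest at -0.60. These correlations are descriptions, since clusters of 1 library share its preparation and depth and the pooled ones also carry the differences between libraries.

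**Figure D3:**
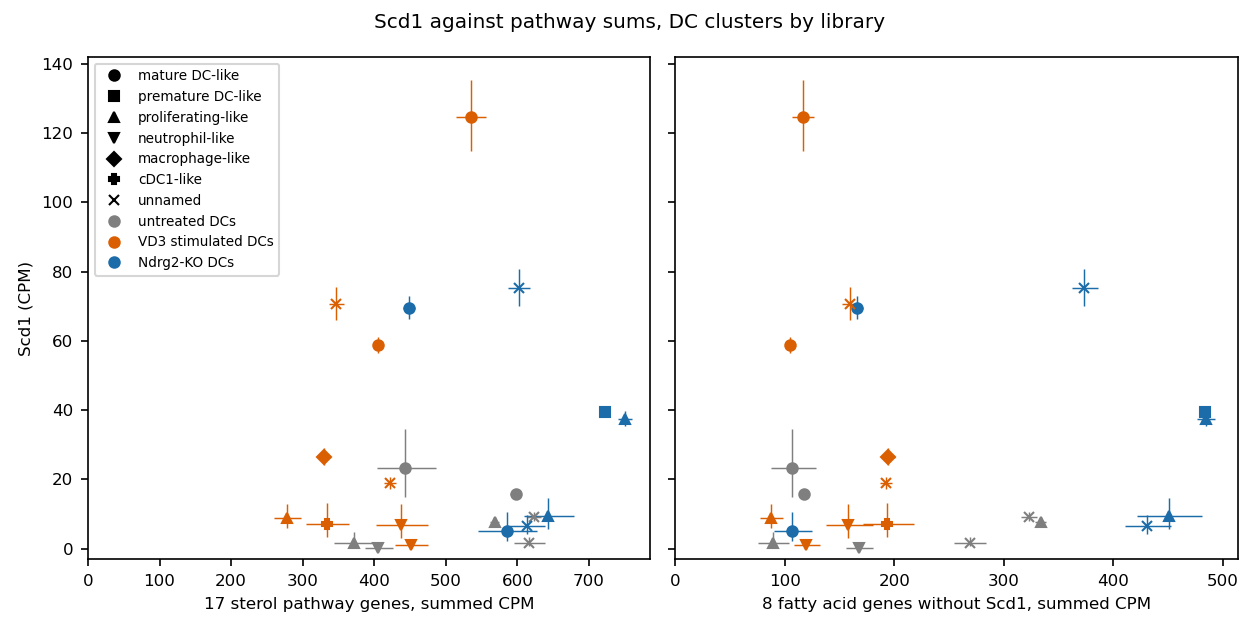
Scd1 level against the summed level of the 17 sterol genes (left) and of the 8 fatty acid genes without Scd1 (right), in CPM, for 23 clusters by library with at least 100 cells, with exact 95% Poisson intervals. Clusters with similar sterol sums lie at Scd1 levels from a few CPM to 124.8 CPM, and the VD3 points lie lower on the sterol axis than most others.

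The share of cells with an Scd1 UMI was measured after each cell was drawn down to 2000 UMIs. It was 1.41% (Clopper-Pearson 95% interval 1.15 to 1.73, 96 of 6785 cells, 472 shallower cells left out) in untreated, 5.86% (5.35 to 6.41, 450 of 7676, 1149 left out) in VD3 stimulated and 8.17% (7.57 to 8.80, 640 of 7835, 134 left out) in Ndrg2-KO DCs. The undrawn shares were 10.6%, 22.6% and 38.8%. In mature DC-like cells the drawn shares were 1.97%, 9.24% and 9.86%, and neutrophil-like cells, which should lack Scd1, had 0.154% and 0.124% in the untreated and VD3 libraries at medians of 2933.5 and 2856.5 UMIs. Both treated libraries thus had a larger share of cells with Scd1 than the untreated one, and in the untreated and VD3 libraries the shares were above those of the neutrophil-like cells. The Ndrg2-KO library held 31 neutrophil-like cells, too few for such a reference. Mature DC-like cells held 61.0% of the Scd1 UMIs of the VD3 library and 38.4% of its cells, and the unnamed clusters of that library held 28.3% of the UMIs and 17.6% of the cells. In the knockout, mature DC-like cells held 25.5% of the UMIs and 26.0% of the cells, and premature DC-like cells 44.9% and 45.0%, while single unnamed clusters departed from this, as the levels of clusters 12 and 14 show.

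In the wounds, no member was called in either direction over whole libraries. With Ndrg2-KO DCs against control DCs, 16 of 29 genes were above and 13 below 0 at a median of 0.15, beside -0.14 over all genes, of which 4.15% were called higher and 5.83% lower of 12849. With blank hydrogels against control DCs, 15 were above and 14 below at a median of 0.00, beside -0.04 over all genes, of which 3.61% were called higher and 3.56% lower. Both comparisons share the control library, and with each cell given equal weight their medians were -0.48 and -0.39, beside -0.46 and -0.25 over all genes. By summed UMIs Fdps had the largest ratio, at 6.5 CPM with control DCs, 12.7 CPM with Ndrg2-KO DCs and 7.16 CPM with blank hydrogels (0.97, 0.73 to 1.21, and 0.14, -0.14 to 0.42). With every cell weighted equally its ratio for Ndrg2-KO DCs was 0.17, below those of Fdft1 (0.78) and Mvd (0.67). Fasn was at 23.5, 13.7 and 15.0 CPM and Scd1 at 13.9, 11.3 and 8.14 CPM. Acaca was at 14.5, 9.52 and 9.68 CPM and Hsd17b7 at 11.5, 6.34 and 6.73 CPM, so that these 4 genes had their highest level with control DCs. Mvd was at 3.27, 5.4 and 5.01 CPM and Mvk at 4.65, 7.27 and 5.5 CPM, with their lowest level there. The sterol genes were above 0 in 13 of 17 cases with Ndrg2-KO DCs by summed UMIs and in 5 of 17 with every cell weighted equally, and by summed UMIs the fatty acid genes without Scd1 below 0 in 6 of 7. The cell makeup differed between the libraries: neutrophil markers were called higher in 10 of 11 cases (median 1.70), erythroid markers in 5 of 5 (2.49) and fibroblast markers lower in 5 of 6 (-1.12) with Ndrg2-KO DCs, and the part of this in the sums was not tested.

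Of the wound states with at least 50 cells in each library compared, fibroblast-like cells had the largest number of members called. The number that could be compared differed too. For Ndrg2-KO against control DCs it was 28 here, 23 in macrophage-like, 14 in monocyte-like, 11 in neutrophil-like and 8 in T cell-like cells. All 6 fibroblast markers were detected in this cluster, which held 462 cells with control DCs, 461 with Ndrg2-KO DCs and 300 with blank hydrogels, at medians of 29356, 26422 and 27518 UMIs and mitochondrial shares of 2.01%, 2.12% and 2.02%. With Ndrg2-KO DCs against control DCs, 26 of 28 genes compared were above 0 and 11 were called higher, beside 4.51% of 10931 genes, with 0 called lower, beside 1.47%. The median was 0.81, beside 0.08 over all genes. The 17 sterol genes summed to 163 CPM with control DCs, 302 CPM with Ndrg2-KO DCs and 164 CPM with blank hydrogels, a log2 ratio of 0.89 (0.81 to 0.96) for Ndrg2-KO and 0.01 (-0.09 to 0.10) for blank against control.

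**Figure D4:**
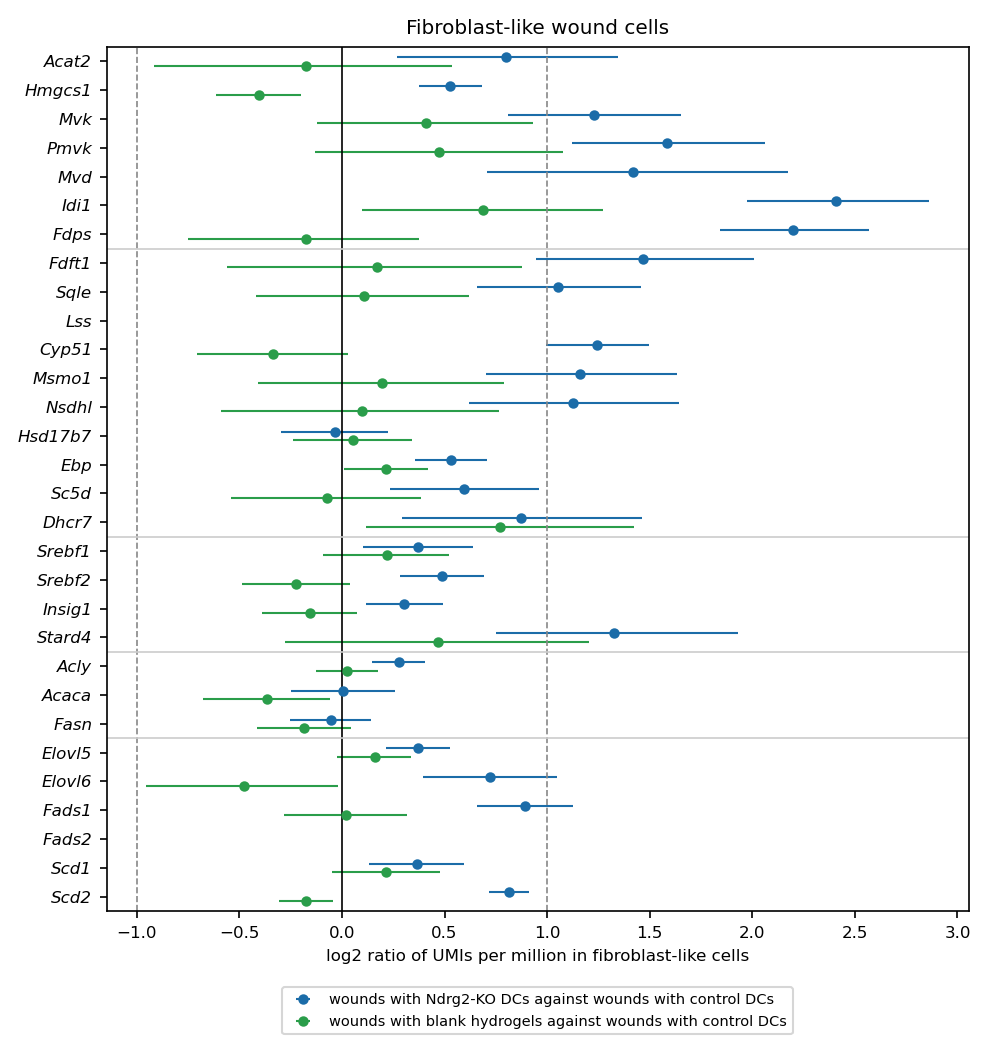
Log2 ratios of the members in wound fibroblast-like cells with Ndrg2-KO DCs and with blank hydrogels, each against control DCs, with exact 95% intervals, grouped by role between grey lines and with dashed lines at 2-fold. Idi1 (2.41) and Fdps (2.20) lie furthest right with Ndrg2-KO DCs, while the blank points lie around 0.

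The mevalonate genes were above 0 in 7 of 7 cases, with 5 called and a median of 1.42. Idi1 (chr13:8885501-8892451, plus strand) was at 3.73 CPM with control DCs, 19.8 CPM with Ndrg2-KO DCs and 6.0 CPM with blank hydrogels (2.41, 1.97 to 2.86, for Ndrg2-KO against control). Fdps (chr3:89093588-89101959, minus strand) was at 5.70, 26.1 and 5.04 CPM (2.20, 1.84 to 2.57). Pmvk was at 3.80, 11.4 and 5.28 CPM (1.58, 1.12 to 2.06). In each of these genes the Ndrg2-KO library stood apart from both other wound libraries. Mvd (1.69, 4.52 and 2.04 CPM) and Mvk (5.07, 11.9 and 6.72 CPM), whose windows are printed above, were called higher at 1.42 (0.71 to 2.17) and 1.23 (0.81 to 1.65). Hmgcs1 was at 44.2, 63.7 and 33.4 CPM (0.53, 0.38 to 0.68) and Acat2 at 0.80, both short of 2-fold.

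Of the later sterol genes, 8 of 9 were above 0, with 5 called and a median of 1.05. Fdft1, the squalene synthase, was at 3.1, 8.55 and 3.48 CPM in the control, Ndrg2-KO and blank wounds (1.47, 0.95 to 2.01), and Cyp51 at 14.1, 33.3 and 11.2 CPM (1.24, 1.0 to 1.49). Msmo1 (1.16), Nsdhl (1.12) and Sqle (1.05) were also called, and Hsd17b7 was at -0.04. Among the regulators, Stard4 was called (2.60, 6.54 and 3.60 CPM, 1.33), while Srebf2 (0.49), Srebf1 (0.37) and Insig1 (0.30) were short of 2-fold. None of the fatty acid genes compared was called: Fasn was at -0.05, Acaca at 0.01 and Acly at 0.28, and Scd2 was at 99.6, 175 and 88.2 CPM (0.81, 0.72 to 0.91). Elovl6, Elovl5 and Fads1 were above 0 and short of 2-fold. Scd1 was at 20.8, 26.7 and 24.1 CPM (0.36, 0.13 to 0.59), so the sterol sum (0.89) stood further from the control than Scd1 in these cells, with Hsd17b7 an exception among its genes.

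Against blank hydrogels the fibroblast-like cells of Ndrg2-KO DC wounds were also higher in the sterol genes. Of 28 genes, 27 were above 0 and 8 were called higher (Idi1, Fdps, Fdft1, Cyp51, Nsdhl, Mvd, Pmvk and Elovl6), beside 2.99% of 10543 genes, with 0 called lower, beside 1.13%. The sterol ratio was 0.88 (0.79 to 0.97), and this comparison shares the Ndrg2-KO library with the one above. Blank against control had 16 of 27 genes above 0 and 0 called in either direction, beside 1.85% of 10506 genes called higher and 0.990% called lower.

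Cell by cell, the fibroblast-like cells of Ndrg2-KO DC wounds stood apart most in an upper tail of the sterol level. The median cell had 140.2 CPM of the 17 genes with control DCs, 190.2 CPM with Ndrg2-KO DCs and 143 CPM with blank hydrogels, which rested on medians of 4, 5 and 4 sterol UMIs per cell, a difference of about 1 UMI. The 95th percentile was 362, 936 and 322 CPM. Cells over 500 CPM numbered 14 (3.03%), 57 (12.4%) and 7 (2.33%), and in the Ndrg2-KO library those cells held 44.7% of the sterol UMIs and 12.6% of all UMIs. Their median UMIs were 27300, 27062 and 25703, near those of all fibroblast-like cells.

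**Figure D5:**
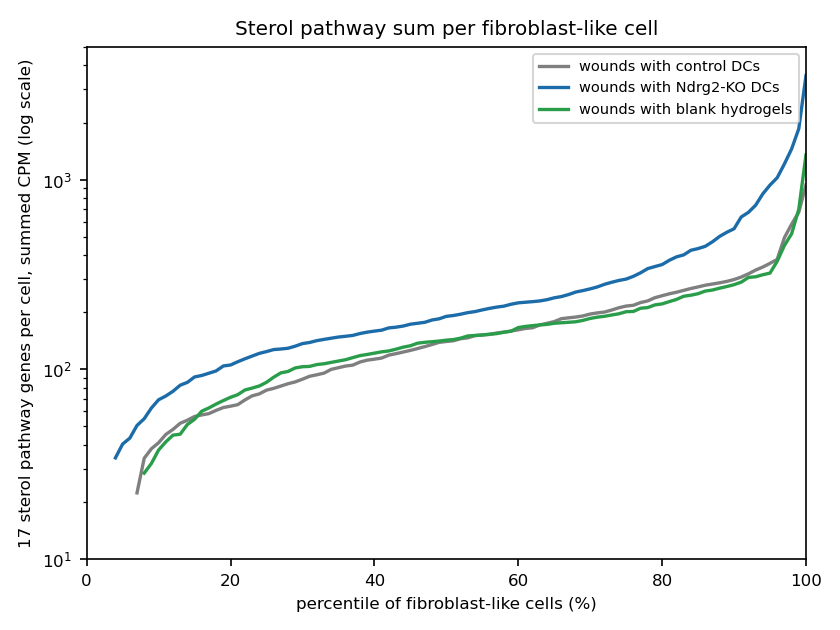
Summed level of the 17 sterol genes in each wound fibroblast-like cell (CPM, log axis) by the cell's percentile in its library, for the control, Ndrg2-KO and blank wounds, with cells at 0 off the axis. The Ndrg2-KO curve lies above the others at the median (190.2 against 140.2 and 143 CPM) and parts from them further at the 95th percentile (936 against 362 and 322 CPM).

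Markers of other cells differed in the same fibroblast-like cells. B cell markers, mostly Ighm with Ndrg2-KO DCs, summed to 3.0 CPM with control DCs, 312 CPM with Ndrg2-KO DCs and 10.2 CPM with blank hydrogels. Erythroid markers summed to 186, 1835 and 1180 CPM, and proliferation markers to 34.9, 133 and 24.5 CPM. In the same order, NK markers summed to 0.28, 20.3 and 0.12 CPM, T cell markers to 3.94, 11.7 and 2.28 CPM, and neutrophil markers to 422, 851 and 694 CPM. Sebocyte markers (1.4, 0.9 and 0.7 CPM) and adipocyte markers (0.8, 0.6 and 0.4 CPM), of cell types that make much lipid, were near 0 in all 3 libraries. Without cells that had a proliferation marker UMI the sterol ratio was 0.76 with 10 of 28 genes called, beside 2.86% of all genes, and without cells that had a B cell marker UMI it was 0.94. Without cells that had any B cell, NK, T cell or erythroid marker UMI it was 0.62, with 0 of 15 genes called, beside 3.17% of all genes, on 52 Ndrg2-KO and 143 control cells. In that selection 11 of 15 genes were above 0, at a median of 0.25, beside 0.81 over 28 genes in all fibroblast-like cells. Fewer genes reached the UMI minimum in it, so these medians and calls differ in genes as well as in cells. The sterol ratio against blank hydrogels was 0.46 (0.21 to 0.71) in the selection, beside 0.88 in all fibroblast-like cells. These selections were chosen after the values were seen.

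In 4 other wound states the sterol sum stood closer to the control. In macrophage-like cells with Ndrg2-KO DCs against control DCs, the sterol sum was 180 and 196 CPM for control and Ndrg2-KO (0.12, 0.00 to 0.24), and 1 of 23 genes, Scd2 (5.15 to 11.05 CPM, 1.10), was called higher, beside 3.48% of 9025 genes, with 0 lower, beside 0.787%. In neutrophil-like cells the sterol sum was 112 and 91.4 CPM (-0.29, -0.52 to -0.06), and in monocyte-like cells 196 and 190 CPM (-0.05, -0.22 to 0.13). In the unnamed cluster 2, which has Mmp12 and Arg1, Cyp51 (-1.17), Dhcr7 (-1.19), Pmvk (-1.05), Elovl5 (-1.11) and Fads1 (-1.24) were called lower of 19 genes, beside 2.28% of 8229 genes, and 0 higher, beside 5.20%. The sterol sum of that cluster was 186 and 160 CPM (-0.22, -0.38 to -0.06). Against blank hydrogels, the unnamed cluster 12, which has keratinocyte and mast cell markers, had a sterol sum of 882 CPM with Ndrg2-KO DCs and 465 CPM with the blank (0.92, 0.68 to 1.16), on 73 and 81 cells. The intervals of the macrophage-like and fibroblast-like sterol ratios (0.00 to 0.24 and 0.81 to 0.96) do not overlap, but they leave out variation between cells. Among fibroblast-like cells of the Ndrg2-KO library, 12.4% of cells held 44.7% of the sterol UMIs.

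Most Scd1 UMIs of the wounds lay in fibroblast-like cells, which held 71.4%, 59.7% and 70.8% of them in the control, Ndrg2-KO and blank wounds, while making up 23.7%, 8.11% and 8.82% of the cells. After each cell was drawn down to 1000 UMIs, 1.04%, 0.322% and 0.569% of all wound cells had an Scd1 UMI, and 3.90%, 2.39% and 4.0% of fibroblast-like cells. Over 28 cluster sums of the wounds the member most like Scd1 was Fads2 (r 0.91), which rested on fewer UMIs than the minimum set for the wounds, followed by Hsd17b7 (0.69), Sqle (0.56) and Scd2 (0.53), and the least like was Msmo1 (-0.68). Fads2, with 16 to 27 UMIs in each library, was first and Msmo1 last of the members within each library too, over 8, 11 and 9 sums in the control, Ndrg2-KO and blank wounds, with Msmo1 at -0.94, -0.32 and -0.74. The others were less alike between libraries, such as Cyp51 at 0.26, 0.87 and 0.12.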

How the data were processed

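Single-cell RNA-seq was measured in 6 libraries, 3 of BM-DCs and 3 of wound cells. The authors deposited UMI counts per gene and cell, written by Cell Ranger, which the file headers give as version 3.1.0 (BM-DCs) and 6.0.0 (wounds). The submitters' notes also name Seurat 3.1.1, and the gene identifiers match the GRCm38 annotation (GENCODE M21). Uniquely mapped reads are counted, so copies that share sequence can lose reads. Barcodes passed to analysis numbered 2711 to 9794 per library, and 29675507 to 143627482 UMIs remained after the filters given above.

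UMIs were summed over kept cells and scaled to CPM here. Ratios have exact conditional binomial intervals, and genes were compared with at least 200 UMIs (BM-DCs) or 100 UMIs (wounds) over 3 libraries, or at least 50 UMIs over both sums within a state, so that all 30 members were compared in BM-DCs and 29 in wounds (Fads2 fell short). Genes that passed through 1 group only are among them. Cells were log-normalised to 10000 UMIs and clustered (scanpy 1.11.5, 2000 variable genes, 15 principal components, 15 neighbours, resolution 0.5), and clusters were named from at least 3 markers. Scrublet marked 0 to 0.873% of cells and had not worked in the larger libraries, so doublets were kept and an alternative dropped the highest 6% of scores. Shares of cells were compared after drawing each cell to 2000 UMIs (BM-DCs) or 1000 UMIs (wounds). The ratios and intervals were run on simulated Poisson counts, the model that the intervals assume. No cells were simulated, so this cannot show how the intervals hold with variation between cells. Software was Python 3.11.15 with SciPy 1.17.1, NumPy 2.4.6 and pandas 2.3.3. All members are named, and in other lists the genes past 2-fold; a list of further sterol genes is not reported here. The members, lists and markers were chosen with earlier results of these data known. Samples were grouped by their labels alone. Alternatives changed the cell filter, doublets, scaling, fold, low-count filter, clustering and drawing.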

Additional observations from a re-analysis of the deposited data

How the results depend on the processing

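No paired analysis was possible because each condition was 1 library, and for the same reason no library could be left out. Of 804 alternative ratios of the members in the BM-DCs, 18 changed sign, and of 522 in the wounds 32 did. In the BM-DCs, 233 of 248 ratios past 2-fold stayed past it, and the lowest of the others was 0.84 in size. These counts include the 1.5-fold cut and the dropped low-count filter. Neither can change the ratio of a gene, so the counts overstate how stable the ratios were. At 1.5-fold, 19 members were lower with VD3 (6 at 2-fold), beside 15.3% of all genes; in the knockout DCs 9 were higher and 4 lower (5 and 0), beside 16.3% and 17.7%. In the wounds 4 were higher and 3 lower with Ndrg2-KO DCs, beside 9.22% and 16.6%, and 1 higher and 5 lower with blank hydrogels, beside 9.04% and 12.2%, where none were at 2-fold. Without doublets, 1 member was lower in Ndrg2-KO DCs (7.88% of all genes) and 1 higher in wounds with Ndrg2-KO DCs (4.17%), and without mitochondrial and ribosomal protein genes 1 was lower in Ndrg2-KO DCs (9.17%). Median-ratio scaling moved the wound median for Ndrg2-KO DCs from 0.15 to 0.29 and gave 1 higher call (5.43%). With every cell weighted equally, 4 members were lower with Ndrg2-KO DCs, beside 17.4% of all genes, and 3 with blank hydrogels, beside 12.1%, and the medians fell to -0.48 and -0.39, beside -0.46 and -0.25 over all genes; Scd1 with blank hydrogels ranged from -1.89 to 0.26. The cause of these differences was not tested.

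With 30 principal components, fibroblast-like cells had a sterol sum of 287 CPM with Ndrg2-KO DCs (302 CPM) and 182 CPM with the blank (164 CPM), Scd1 at 30.3 CPM (26.7) and 20.1 CPM (24.1), and a fatty acid sum without Scd1 of 296 CPM with the blank (278.5) and 306 CPM with control DCs (294). At resolution 1.0, mature DC-like cells had Scd1 at 55.9 CPM with VD3 (65.2) and 11.4 CPM untreated (16.1), and a fatty acid sum of 111 CPM untreated (117). Without drawing down, 10.6%, 22.6% and 38.8% of the untreated, VD3 and Ndrg2-KO DCs had an Scd1 UMI, and 11.6%, 4.98% and 5.32% of the control, Ndrg2-KO and blank wound cells. The fibroblast-like sterol ratio for Ndrg2-KO against control DCs was 0.76 without cells with a proliferation marker UMI, 0.62 without those with a B cell, NK, T cell or erythroid marker UMI, 0.80 in 1 of 2 parts of the cluster at resolution 1.0 and 0.89 in the other part and in cells with at least 10000 UMIs; these selections were chosen after seeing the data.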
